A study of Mus musculus with 21 samples.

Results

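Rptor encodes raptor, the subunit with which the kinase complex mTORC1 binds its substrates. The comparison described here is that of quiescent muscle stem cells (satellite cells) with a conditional deletion of Rptor against WT cells, both from noninjured mice, across all genes on the array. Samples were chosen by their titles: 7 of the series' 21 arrays belong to it, 2 from 1 pool of Rptor KO QSC (quiescent satellite cells) and 5 from 3 pools of WT QSC. A pool held cells of 3 to 4 mice aged 3 to 5 months.

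The WT genotype is Pax7CreER/+;Rosa26REYFP/+ on a mixed C57BL6 background, and the Rptor KO adds Rptrflox/flox, as the labels spell it. Both thus carry a Cre that is active in Pax7-expressing cells once tamoxifen is given, here at least 2 weeks earlier, and a YFP tracer by which the hindlimb cells were sorted. Only cells in which Cre acted on the tracer were collected, and any that kept a working Rptor allele are included. The cells were not cultured. Groups set beside this comparison are TSC1 KO QSC (TSC1flox/flox with the same Cre and tracer, 1 pool on 2 arrays), cMet KO QSC (cMetflox/flox, 1 pool on 2 arrays, C57BL6 mixed with FVB), and cells from the limb opposite to a barium chloride injury 2.5 days before (contralateral satellite cells, CSC): WT CSC with 3 pools on 4 arrays and Rptor KO CSC with 1 pool on 2 arrays. The comparison addresses what mTORC1 contributes to the cells' state before any injury.

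mTORC1 senses amino acids, growth factors and energy at the surface of the lysosome. When active it promotes protein synthesis through S6 kinases and 4E-BPs, sterol and lipid synthesis through SREBP factors and nucleotide and serine synthesis through ATF4, and it restrains autophagy and lysosome formation by holding TFEB and its relatives in the cytoplasm. TSC1 is part of an inhibitor of mTORC1, so that its loss is the opposite lesion. Satellite cells rest outside the cell cycle until they are called on to repair muscle.

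All values are log2 signals of the authors' RMA summary. A difference of 1 is 2-fold, and each is Rptor KO QSC minus the mean of the 3 WT QSC pools, with its standard error (SE). With 1 knockout pool there is no replicate check of the genotype: limma's SE takes its spread from the WT groups on the assumption that a knockout pool would spread as much, and genotype and pool cannot be told apart. An exact permutation test of 1 pool against 3 could not give a two-sided p below 0.25. The 2 arrays of the Rptor KO QSC pool correlated at 0.982 across the tested genes, against 0.994 to 0.998 for the other QSC pools with 2 arrays. Those of Rptor KO CSC and of WT CSC pool 1 correlated at 0.973 and 0.978, and those of cMet KO CSC at 0.997. Both Rptor KO QSC arrays are therefore given below for many of the genes named. Differences use their mean, and the SE does not hold the spread between these 2 arrays. Correlations between WT QSC pools were 0.966 to 0.972, and those of the Rptor KO QSC pool with them were 0.953 to 0.964.

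In QSC the level of the targeted gene did not check the genotype. Rptor (chr11:119602905-119899591, GRCm38.p6) is read by 1 summary value over its transcript, which was 9.58, 8.91 and 9.29 in the 3 WT QSC pools and 9.04 and 9.34 on the 2 Rptor KO arrays. The difference was -0.07 ± 0.27 (limma adjusted p = 0.961), and its sign turned to 0.084 with the second Rptor KO array alone and to 0.0902 without WT QSC pool 1. In CSC, the cells of the limb opposite to the injury, Rptor was at 9.84, 9.47 and 9.43 in the WT pools and at 8.73 and 8.96 on the Rptor KO arrays, which lay below all WT CSC arrays. That difference was -0.73 ± 0.27 and did not pass the threshold (adjusted p = 0.18). Probes outside the floxed part would still be read after a deletion. The other targeted genes did not pass it either: Tsc1 differed by 0.68 ± 0.24 (adjusted p = 0.324) and Met, which encodes the receptor cMet, by 0.04 ± 0.19 (adjusted p = 0.964).

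Of 13956 genes tested, 17 passed limma's adjusted p of 0.05, and 12 of them were lower in Rptor KO QSC (0.086% of genes) and 5 higher (0.0358%), a split that became 15 higher and 20 lower after quantile normalization again and 1 higher and 11 lower when each array was centred on its median. Of the lower genes, Ccna2, Mki67, Top2a, Kif11 and Bub1 are in the list of cell cycle and DNA replication genes, and Anln, Cks2 and Ect2 are outside it but are also known for roles in cell division. The other 4 were Gal, Fdps, Lrrn1 and Lsm6. The higher genes were Gpnmb, Mcoln2, Cox8b and the microRNA genes Mir134 and Mir485. Their sizes ran from 2.58-fold to 6.03-fold. At an unadjusted p under 0.05 there were 1573 genes, 561 higher and 1012 lower, and 35 genes had an adjusted p under 0.06, so that the count turns on small changes of the threshold. The number and identity of the calls also rests on which WT pools set the spread: without WT CSC pool 1, 2 or 3 the count was 5, 2 or 2, and Ccna2 and Mki67 were the genes called each time. Without WT QSC pool 2 it was 46, which held all 17. Fitted on the 3 WT QSC pools and the Rptor KO QSC pool alone, limma passed 0 genes, with 965 at an unadjusted p under 0.05.

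**Figure D1:**
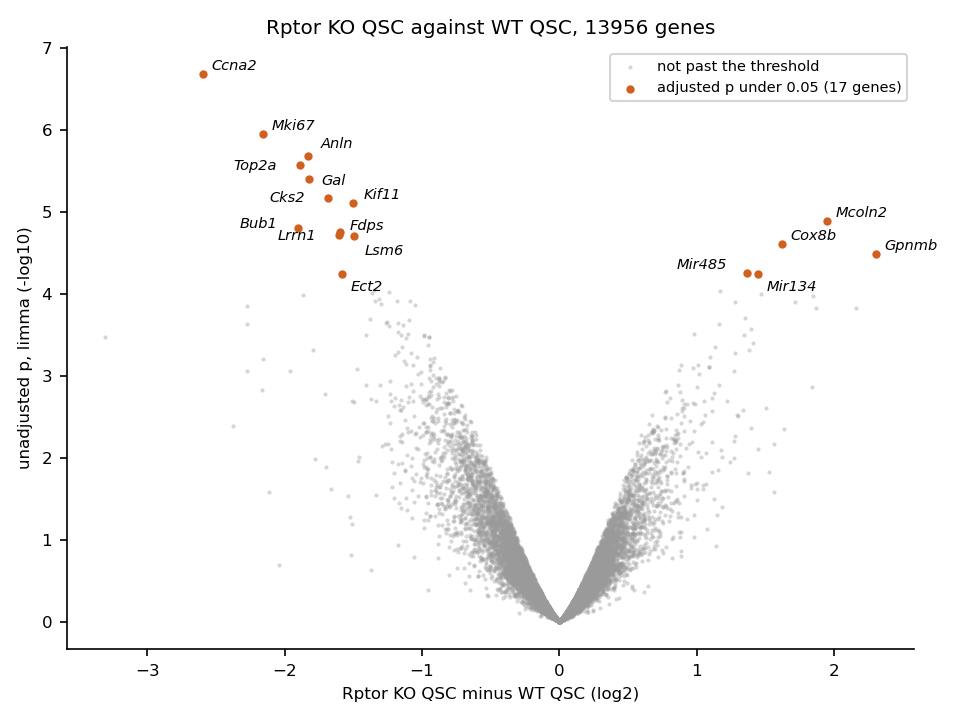
Difference between Rptor KO QSC and WT QSC (x axis, log2) and unadjusted limma p (y axis, -log10) for the 13956 genes tested. Orange points are the 17 genes past the adjusted threshold, 12 of them lower, and Ccna2 has the smallest p.

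The cell division genes were separated by a wide gap from every WT QSC array. Ccna2 (chr3:36564865-36573038), which encodes cyclin A2 of S phase and early mitosis, was at 9.19, 8.91 and 9.05 in the WT QSC pools and at 6.22 and 6.69 on the Rptor KO arrays. It fell by 2.59 ± 0.19 (adjusted p = 0.00293), or 6.03-fold. Mki67, whose product Ki-67 marks cycling cells, was at 9.18, 8.96 and 9.19 in WT and at 7.13 and 6.77 in the knockout, a fall of 2.16 ± 0.19 (adjusted p = 0.00776). Neither gene's arrays overlapped between the groups, which describes the same values that led to their call.

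Top2a, the topoisomerase that untangles replicated chromosomes, fell by 1.89 ± 0.18 (adjusted p = 0.00945) from WT pools at 8.13, 8.40 and 8.36 to 6.42 and 6.39. Anln, the cytokinesis protein anillin, fell from 8.06, 7.93 and 7.94 to 6.16 and 6.13, by 1.83 ± 0.17 (adjusted p = 0.00945). The 2 Rptor KO arrays lay close together for both genes. Kif11, the motor that separates spindle poles, was at 7.82, 7.89 and 7.87 in WT and at 6.24 and 6.47 in the knockout, a fall of 1.50 ± 0.17 (adjusted p = 0.0157). Cks2, a small protein that binds cyclin-dependent kinases, fell by 1.69 ± 0.18 (adjusted p = 0.0156). Bub1, a kinase of the spindle checkpoint, fell by 1.91 ± 0.23 (adjusted p = 0.023), from 6.97, 7.44 and 6.92 to 5.46 and 4.95. Ect2, which directs the contractile ring in cytokinesis, fell by 1.58 ± 0.22 (adjusted p = 0.0471). In the knockout Bub1, Anln and Top2a were below 6.45 on both arrays, the mean level under which genes were left out as dim.

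**Figure D2:**
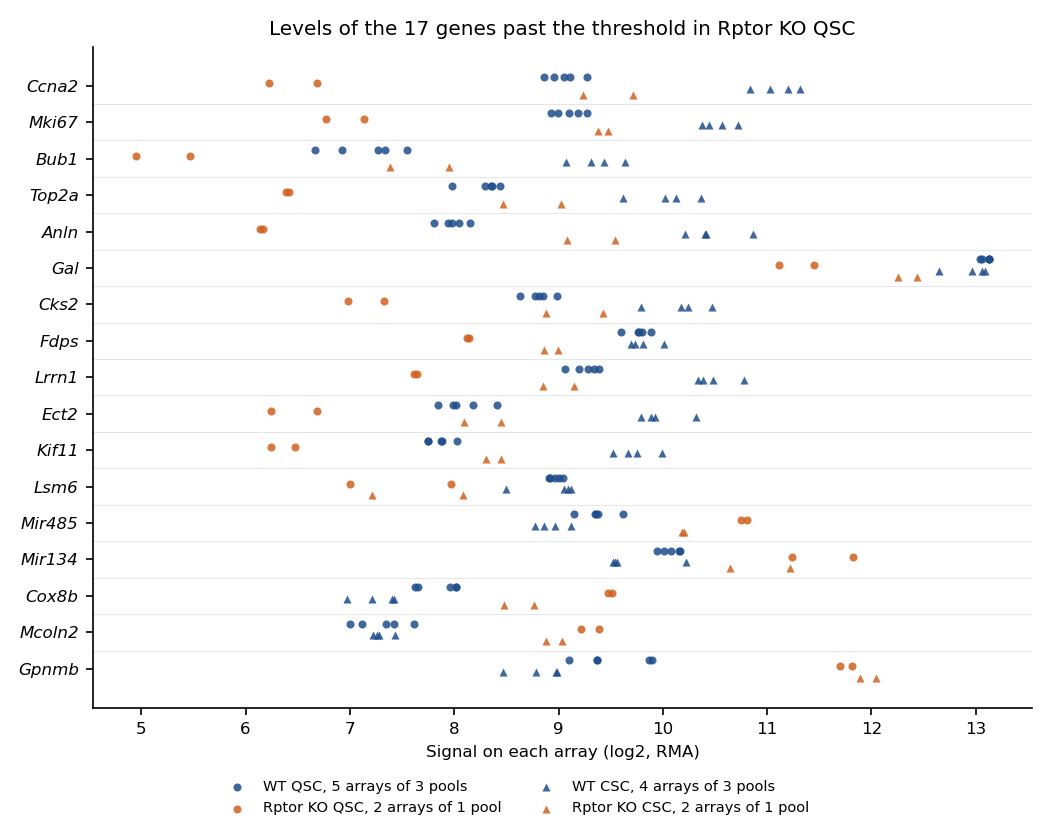
Signal on each array (log2) of the 17 genes past the threshold, with WT in blue, Rptor KO in orange, QSC as circles and CSC as triangles. The orange circles lie outside all blue circles for each gene, for Ccna2 at 6.22 and 6.69 against WT QSC pools at 8.91 to 9.19. The genes were called on these same QSC values, so that the separation is no further support.

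Over the whole list of 44 tested cell cycle and DNA replication genes, 5 passed the threshold, all lower, and the median difference was -0.315 beside -0.003 over all genes tested. In 19 of the 44 both Rptor KO arrays lay below all 5 WT QSC arrays and in 2 above, where 15.1% and 11.7% of all genes did so. The list reached from -2.59 for Ccna2 to 0.61 for Cdt1, so that its members did not move as 1 block. Of the list of 20 G1 cyclins, kinases and inhibitors none passed, with a median of -0.358 and 9 members below all WT arrays. Cdkn1c, which encodes the cell cycle inhibitor p57, was at 10.70, 9.90 and 11.48 in WT QSC and at 8.62 and 8.21 in the knockout, -2.28 ± 0.47 (adjusted p = 0.134). Cdkn2c, the inhibitor p18, and Rb1, the retinoblastoma protein, were at -1.02 ± 0.28 and -0.80 ± 0.19 (adjusted p = 0.235 and 0.172). The Rptor KO arrays of Rb1 were at 9.28 and 8.64. The inhibitor genes Cdkn2a and Cdkn2b were at -0.23 and -0.26, and Cdkn2d at 0.10, all given as values outside the rule for named genes. On bulk arrays fewer cells in cycle and less RNA per cell cannot be told apart.

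Promoters of cell division genes often carry a CCAAT box and, a short way downstream, the motif TTTGAA (cell cycle homology region), through which the DREAM complex represses them in resting cells. The Kif11 promoter is printed as a compact example among the genes that fell, with both motifs in capitals (250 bases before to 50 after the RefSeq start, GRCm38.p6, chr19:37376132-37376431, plus strand). The CCAAT match begins 45 bases and the TTTGAA match 19 bases before the start, both read on the opposite strand.
Kif11: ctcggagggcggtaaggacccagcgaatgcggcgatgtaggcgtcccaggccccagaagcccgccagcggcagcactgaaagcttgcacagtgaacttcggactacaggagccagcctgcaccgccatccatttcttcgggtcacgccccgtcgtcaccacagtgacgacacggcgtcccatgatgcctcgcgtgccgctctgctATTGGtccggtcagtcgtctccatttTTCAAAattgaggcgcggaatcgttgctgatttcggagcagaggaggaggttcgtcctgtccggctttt
Searched on either strand, CCAAT and TTTGAA occurred together in the promoter window of 11 of 34 tested genes of the cell cycle list with an entry (32.4%) and in 4 of the 10 lower genes with one, against 5.6% of the 11009 tested genes with one. Counted with or without the other motif, CCAAT was in 41.6% and TTTGAA in 14.1% of those 11009. In the cell cycle list these shares were 73.5% and 32.4%, and in the 10 lower genes 80% and 50%. A match describes these letters in this window and is no measured binding site.

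Sterol synthesis was the list with the lowest median. Over its 20 tested members the median difference was -0.892, and 18 were negative. In 13 both Rptor KO arrays lay below all WT QSC arrays (65%, beside 15.1% of all genes). Fdps passed the threshold. It encodes farnesyl diphosphate synthase, which makes the precursor of squalene and of protein prenyl groups, and lies at chr3:89093588-89101967. It was at 9.83, 9.79 and 9.60 in the WT QSC pools and at 8.13 and 8.14 on the Rptor KO arrays, a fall of 1.60 ± 0.20 (adjusted p = 0.023). Idi1, the enzyme just before it in the pathway, was at 10.53, 10.71 and 9.62 in WT and at 8.65 and 7.38 in the knockout, -2.27 ± 0.39 (adjusted p = 0.0752). Its 2 knockout arrays lay further apart than the WT QSC pools. Nsdhl, which removes methyl groups from sterols, was at -1.12 ± 0.22 (adjusted p = 0.128). Cyp51, Fdft1, Hmgcs1, Hsd17b7, Insig1, Lss, Msmo1, Sc5d, Sqle and Stard4 were the other members below all WT arrays, named here after their values were seen. Ebp was the member above all of them.

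Of 12 fatty acid synthesis genes none passed, with a median of -0.233. Elovl6, Scd2 and Elovl5, which elongate or desaturate fatty acids, were at -1.0 ± 0.27, -0.97 ± 0.33 and -0.60 ± 0.21 (adjusted p = 0.233, 0.304 and 0.306). For each of them both Rptor KO arrays lay below the WT QSC arrays.

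The ATF4 and amino acid synthesis list had 0 of 27 members past the threshold in limma and a median of -0.246. Below all WT arrays lay 11 members (40.7%, beside 15.1% of all genes). Psat1, an enzyme of serine synthesis, was at 9.68, 9.49 and 9.53 in WT QSC and at 8.05 and 8.61 in the knockout, -1.24 ± 0.19 (adjusted p = 0.0587). Phgdh, which opens that pathway, was at -1.12 ± 0.24 (adjusted p = 0.161). Mthfd2 of mitochondrial folate metabolism was at -0.99 ± 0.23 (adjusted p = 0.172). In purine and pyrimidine synthesis 0 of 17 passed and the median was -0.099. There Ctps, which makes CTP, was at -0.92 ± 0.20 (adjusted p = 0.161). In glycolysis 0 of 22 passed and the median was -0.022, with Pgk1 at -0.74 ± 0.23 (adjusted p = 0.269).

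In the lists of energy metabolism, which do not hold the muscle isoform gene Cox8b, 0 genes passed the threshold in limma. Among 69 nuclear-encoded genes of oxidative phosphorylation the median was -0.242. Below all WT QSC arrays lay 26 (37.7%, beside 15.1% of all genes), against 5 above (7.2%, beside 11.7%). Cycs, cytochrome c, was at 11.71, 12.16 and 11.91 in WT and at 11.09 and 10.47 in the knockout, -1.15 ± 0.21 (adjusted p = 0.102). Cox6c of complex IV was at -0.94 ± 0.19 and Ndufb6 of complex I at -0.97 ± 0.23 (adjusted p = 0.132 and 0.172). The Rptor KO arrays of Ndufb6 lay apart, at 9.68 and 8.86. The 20 TCA cycle genes had a median of -0.356, with 8 below all WT arrays (40%) and 0 above. Idh1, the cytosolic isocitrate dehydrogenase, was at -1.41 ± 0.31 (adjusted p = 0.16), Dld at -1.17 ± 0.28 (adjusted p = 0.175) and Sucla2 at -0.78 ± 0.17 (adjusted p = 0.17). The Rptor KO arrays of Dld were at 8.51 and 7.81. The 77 mitochondrial ribosomal protein genes had a median of -0.116.

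Of 38 proteasome subunits, 31 had a negative difference, the median was -0.470, and 23 lay below all WT QSC arrays (60.5%, beside 15.1% of all genes) and 0 above. None passed the threshold. Psma4 of the core particle was at 9.37, 9.36 and 9.55 in WT and at 8.67 and 8.35 in the knockout, -0.92 ± 0.19 (adjusted p = 0.143). Psmd14 and Psmd13 of the regulatory particle were at -1.10 ± 0.25 and -0.93 ± 0.23 (adjusted p = 0.172 and 0.197). The 17 heat shock and chaperone genes had a median of -0.395 with 8 below all WT arrays (47.1%). Hspa4, a co-chaperone of Hsp70, was at 11.49, 11.52 and 11.35 in WT and at 10.38 and 10.35 in the knockout, -1.09 ± 0.17 (adjusted p = 0.0587). Hspd1, the mitochondrial chaperonin, was at -0.98 ± 0.25 (adjusted p = 0.21).

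The 2 lists of ribosome genes lay on opposite sides. Of 60 cytosolic ribosomal protein genes, 25 (41.7%, beside 11.7% of all genes) had both Rptor KO arrays above all WT QSC arrays and 3 below. Their median was small, 0.146, and 0 passed the threshold in limma. Rps21 was at 11.31, 11.20 and 10.96 in WT and at 12.03 and 12.04 in the knockout, 0.88 ± 0.20 (adjusted p = 0.171). Rps29 was at 0.71 ± 0.22 and Rps27l at -0.83 ± 0.21 (adjusted p = 0.269 and 0.208). Of 44 ribosome biogenesis genes 0 lay above and 14 below (31.8%, beside 15.1% of all genes), with a median of -0.265. Among them Dkc1, the pseudouridine synthase of ribosomal RNA, was at -0.99 ± 0.23 (adjusted p = 0.172). Ribosomal protein genes have many processed copies in the genome, so that probes may share signal between them.

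**Figure D3:**
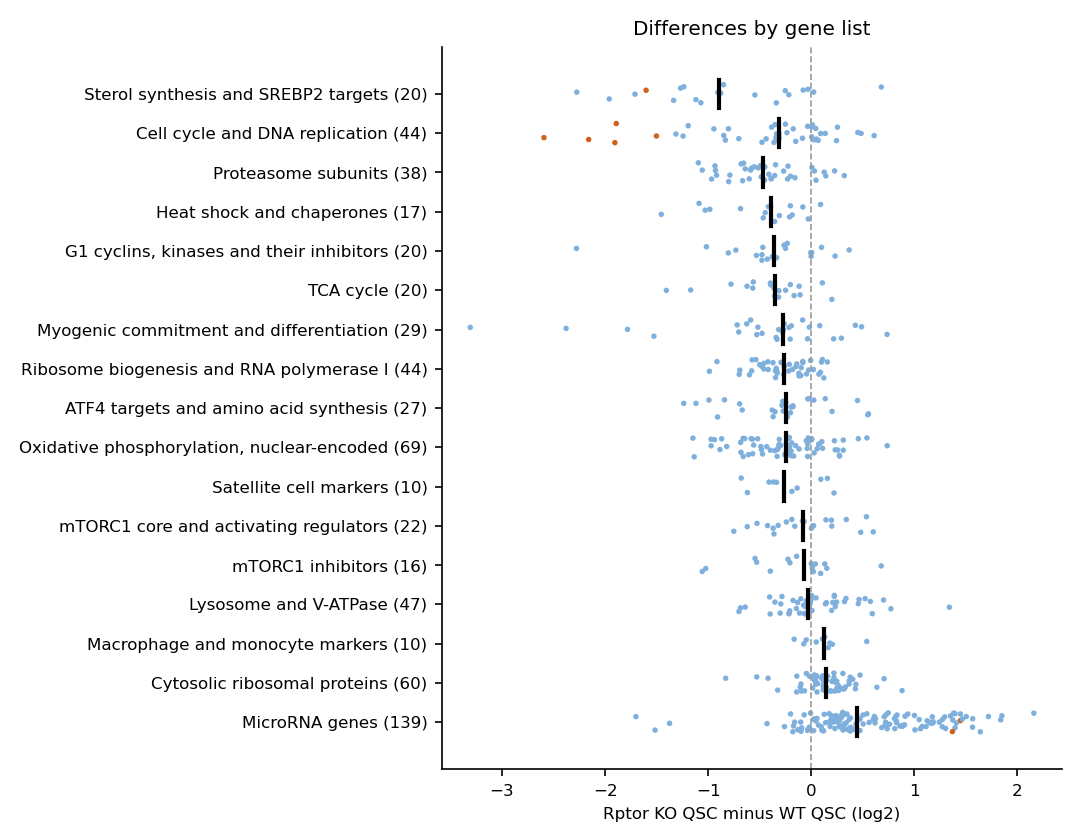
Differences (x axis, log2) of the tested members of 17 gene lists, each point a gene and each black bar the list's median. Orange points passed the threshold, the dashed line is the median over all genes tested (-0.003), and the number of members is in parentheses. Sterol synthesis has the lowest median (-0.892) and microRNA genes the highest (0.448) of those shown.

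Genes of the mTORC1 pathway itself did not pass the threshold in limma in this comparison. The 22 core and activating genes had a median of -0.077. Mtor, the kinase, was at 0.20 ± 0.32 (adjusted p = 0.887) with overlapping arrays. Wdr59, a GATOR2 subunit, was at 0.53 ± 0.17 (adjusted p = 0.286) and Flcn, folliculin, at 0.60 ± 0.24 (adjusted p = 0.395). Rheb, the GTPase that switches mTORC1 on, was at -0.75 ± 0.32 and Mlst8, a subunit shared with mTORC2, at -0.62 ± 0.27 (adjusted p = 0.413 and 0.433). The difference of Mtor turned to -0.038 without WT QSC pool 2.

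The 16 inhibitors had a median of -0.071. Tsc1 was the member above all WT QSC arrays, with pools at 8.66, 8.34 and 8.69 and Rptor KO arrays at 9.21 and 9.27. Sesn1, a leucine and stress sensor, was at -1.02 ± 0.27 and Castor2, an arginine sensor subunit, at -1.06 ± 0.43 (adjusted p = 0.224 and 0.394). Among the 12 effectors of translation the median was 0.021. Eif4e, the cap-binding protein, was at -0.82 ± 0.32 and Eif4ebp1, its inhibitor 4E-BP1, at -0.53 ± 0.24 (adjusted p = 0.383 and 0.451). Pdcd4, a translation repressor that S6 kinase marks for degradation, was at -1.11 ± 0.47 (adjusted p = 0.424), with Rptor KO arrays at 9.46 and 8.56. Rictor, which takes raptor's place in mTORC2, was at 0.35 ± 0.20 (adjusted p = 0.565). These arrays read mRNA, and neither protein nor its phosphorylation was measured.

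Of the higher genes, Gpnmb had the largest difference. It encodes a membrane glycoprotein of lysosomes and melanosomes, is a known target of the MiT/TFE factors, and lies at chr6:49036518-49058182. It was at 9.88, 9.37 and 9.10 in the WT QSC pools and at 11.81 and 11.70 in Rptor KO QSC, a rise of 2.31 ± 0.30 (adjusted p = 0.0329), or 4.94-fold. TSC1 KO QSC, the opposite lesion, was as high, at 11.74, so that the difference between the 2 knockouts was 0.02 (adjusted p = 0.983). cMet KO QSC was at 9.99. Macrophages express Gpnmb strongly. The macrophage and monocyte list, with 10 of 15 listed genes tested, had a median difference of 0.119 in QSC. Of its members 1 lay above all WT arrays (10%, beside 11.7% of all genes) and 0 passed the threshold. The mean level of its 10 members was 7.63 in Rptor KO QSC and 7.06 to 7.79 in the WT QSC pools. Csf1r, a defining receptor of macrophages, was at 6.98, 6.43 and 7.03 in WT QSC and 6.98 and 7.05 in the knockout. Cd68, a lysosomal glycoprotein of phagocytes, was the member above all WT arrays. It was at 9.31, 8.68 and 9.28 in the WT QSC pools and at 9.62 and 9.63 in the knockout, 0.54 ± 0.28 (adjusted p = 0.521). The part of macrophages in the rise of Gpnmb in QSC was not tested.

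Mcoln2 encodes a calcium channel of endosomes and lysosomes. It was at 7.38, 7.06 and 7.61 in the WT QSC pools and at 9.39 and 9.21 in Rptor KO QSC, a rise of 1.95 ± 0.23 (adjusted p = 0.0225). In contrast to Gpnmb it was not high in TSC1 KO QSC, at 7.16, and the difference between these knockouts was 2.14 (adjusted p = 0.0157). A promoter window is printed because it holds the palindrome CACGTG, the core of the sites that TFEB and its relatives bind, in capitals. The match begins 72 bases before the start used for this window (chr3:146149924-146150223, GRCm38.p6, plus strand). The annotated span of the gene begins earlier, at chr3:146149796, so that the window lies inside the gene.
Mcoln2: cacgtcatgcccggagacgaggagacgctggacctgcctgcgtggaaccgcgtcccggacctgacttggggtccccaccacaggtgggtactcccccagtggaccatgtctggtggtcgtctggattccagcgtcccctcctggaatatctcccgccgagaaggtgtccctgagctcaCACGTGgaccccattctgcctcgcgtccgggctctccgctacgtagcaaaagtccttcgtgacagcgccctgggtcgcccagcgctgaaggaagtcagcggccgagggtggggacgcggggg
CACGTG, which reads alike on either strand, was in 11.1% of the 11009 promoter windows of tested genes and in 14 of 38 of the lysosome list (36.8%). It is bound by many factors of the same family.

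In the lysosome and V-ATPase list 0 of 47 passed the threshold in limma, and the median was -0.027. Above all WT QSC arrays lay 8 members (17%, beside 11.7% of all genes) and below them 4 (8.5%, beside 15.1%). Gaa, the acid alpha-glucosidase that breaks down lysosomal glycogen, was at 9.77, 8.80 and 8.97 in WT and at 10.44 and 10.60 in the knockout, 1.34 ± 0.33 (adjusted p = 0.185). It lies at chr11:119267963-119285458, close to the targeted gene Rptor. Of 188 tested genes within 10 Mb of Rptor, 0 passed the threshold in limma. Of them 15.4% lay above all WT QSC arrays and 6.9% below. The part of the targeted locus in the rise of Gaa was not tested. Npc2, a lysosomal cholesterol carrier, was at 0.77 ± 0.19 (adjusted p = 0.201). Scarb2, a lysosomal membrane protein, was at -0.69 ± 0.20 (adjusted p = 0.246). In the list of MiT/TFE factors and autophagy genes, 1 of 37 passed, Gpnmb, and the median was 0.011. Atg3, an enzyme of autophagosome formation, was at -1.13 ± 0.29 (adjusted p = 0.207), with its Rptor KO arrays apart at 8.70 and 7.93.

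Cox8b, a muscle isoform of a complex IV subunit at chr7:140898942-140900446, was at 8.02, 7.64 and 7.96 in the WT QSC pools and at 9.47 and 9.51 in Rptor KO QSC, a rise of 1.62 ± 0.21 (adjusted p = 0.0266). TSC1 KO QSC was higher still, at 11.94, and Rptor KO QSC minus TSC1 KO QSC was -2.45 (adjusted p = 0.00862). cMet KO QSC was at 7.81, within the WT range. Cox8b is also in the list of muscle fibre markers, whose 16 tested members had a median of -0.169. Of them 3 lay below all WT arrays (18.8%, beside 15.1% of all genes) and Cox8b alone above. The mean level of that list was 7.58 in Rptor KO QSC and 7.45 to 8.07 in the WT QSC pools. Actn3 and Atp2a1, fast fibre genes, were at -1.79 ± 0.34 and -1.34 ± 0.51 (adjusted p = 0.106 and 0.368).

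The remaining lower genes belong to neither group. Gal, which encodes the neuropeptide galanin (chr19:3409915-3414544), was among the brighter genes, at 13.13, 13.05 and 13.12 in WT QSC and 11.45 and 11.11 in the knockout, and fell by 1.82 ± 0.18 (adjusted p = 0.0111). Lrrn1, a membrane protein with leucine-rich repeats, fell from 9.37, 9.24 and 9.07 to 7.64 and 7.62, by 1.60 ± 0.19 (adjusted p = 0.023). Lsm6, a subunit of a ring that binds the ends of U6 and decaying mRNAs, fell by 1.50 ± 0.18 (adjusted p = 0.023), with its Rptor KO arrays apart at 7.96 and 7.0.

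The rises next in order of p, which did not pass the threshold, were given by the naming rule as values. Dlk1, a Notch-related membrane ligand and an imprinted gene at chr12:109452485-109463336, was at 9.19, 8.33 and 8.95 in WT QSC and at 10.60 and 10.79 in the knockout, 1.87 ± 0.30 (adjusted p = 0.0598). Fxyd5, a regulator of the sodium pump, was at 1.16 ± 0.20 (adjusted p = 0.0752). Ahr, the aryl hydrocarbon receptor, was at 11.60, 11.12 and 11.35 against 12.48 and 12.50, 1.13 ± 0.21 (adjusted p = 0.102). Glis3, a zinc finger factor, was at 0.98 ± 0.17 and Cox7a2l, which binds respiratory complexes together, at 1.01 ± 0.20 (adjusted p = 0.083 and 0.128). Lrmda, Set, Iqcn and Bsx were at 1.35, 1.28, 1.10 and 1.09.

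MicroRNA genes were the list with the highest median among those shown. Of 139 tested, 75 had both Rptor KO arrays above all WT QSC arrays (54%, beside 11.7% of all genes) and 1 below. The median was 0.448, and 2 passed the threshold. Both of these, Mir134 and Mir485, lie in the imprinted Dlk1-Dio3 region on chromosome 12, whose maternal copy yields a large cluster of microRNAs together with the non-coding RNAs Meg3 and Rian. Of the tested microRNA genes 32 lie between the start of Dlk1 and the end of Dio3 (chr12:109452485-110281097). In 30 of these 32 both knockout arrays lay above all WT arrays, all 32 differences were positive, from 0.38 to 1.85, and their median was 1.18. The other 107 had a median of 0.317, with 45 above all WT arrays. Genes of 1 cluster come from shared transcripts and are not independent of each other. The division by position was chosen after the values were seen.

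The mature sequences of the 3 cluster genes with the smallest p are shown, from RefSeq (GRCm38.p6), with the seed (bases 2 to 8), by which a microRNA recognises its targets, in capitals. For Mir485 the 3p arm alone was read.
mmu-miR-485-3p: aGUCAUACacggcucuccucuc
mmu-miR-134-5p: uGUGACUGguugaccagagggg
mmu-miR-134-3p: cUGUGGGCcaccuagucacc
mmu-miR-668-5p: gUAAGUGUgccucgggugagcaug
mmu-miR-668-3p: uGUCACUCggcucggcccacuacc
No seed was shared among those read: the 62 mature sequences read for the 32 genes held 62 different seeds. The 5p arm of Mir485 and the 3p arm of Mir487b were not among them. The array's probes read the precursor or its host transcript, not these mature forms. Mir485 was at 9.25, 9.36 and 9.61 in the WT QSC pools and at 10.81 and 10.75 in the knockout, a rise of 1.37 ± 0.19 (adjusted p = 0.0471). Mir134 was at 10.12, 9.97 and 10.16 in WT and at 11.24 and 11.82 in the knockout, a rise of 1.45 ± 0.20 (adjusted p = 0.0471). Mir668 was at 1.17 ± 0.18 (adjusted p = 0.0587). The mean level of the 32 cluster genes was 8.30, 7.92 and 8.38 in the WT QSC pools, 9.32 in Rptor KO QSC, 8.12 in cMet KO QSC and 7.49 in TSC1 KO QSC. Rptor KO QSC was thus above, and TSC1 KO QSC below, all WT QSC pools. The same order held for the 107 microRNA genes elsewhere, at 7.57, 7.97 and 7.86 in the WT QSC pools, 8.19 in Rptor KO QSC and 7.47 in TSC1 KO QSC. Small nucleolar RNA genes, another class of short RNAs, had a median difference of 0.243, with 35 of 47 positive and 0 past the threshold in limma. Their mean level in Rptor KO QSC, 9.79, lay within the WT QSC pools (9.12, 9.54 and 9.95), and that in TSC1 KO QSC was 9.10.

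**Figure D4:**
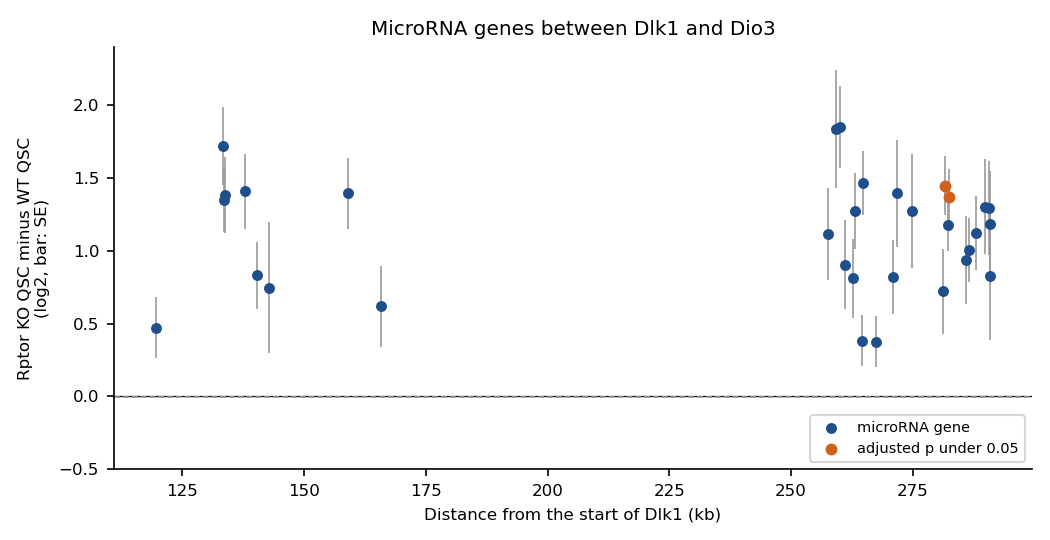
Difference of each of the 32 microRNA genes between Dlk1 and Dio3 (y axis, log2, with its SE) by distance from the start of Dlk1 (x axis, kb). All lie above 0, and the orange points are Mir134 and Mir485.

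Longer genes in or beside the region, 5 with Dlk1, had a median difference of 0.714. Above all WT arrays lay 3 members (60%, beside 11.7% of all genes). Rtl1, a retrotransposon-derived gene, was at 0.78 ± 0.21 and Begain, which lies before the start of Dlk1 (chr12:109032181-109068242), at 0.46 ± 0.23 (adjusted p = 0.231 and 0.495). Meg3, at 0.71 ± 0.40, and Rian, at 0.57 ± 0.36, were looked up after the values were seen (adjusted p = 0.554 and 0.613). Outside the region Mir222, also picked after its values were seen, was at 2.16 ± 0.35 (adjusted p = 0.0598), from 8.69, 9.56 and 8.69 in WT QSC to 11.31 and 10.97.

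Satellite cell identity was measured with 10 markers, all tested and all bright in Rptor KO QSC (10.26 to 12.62). None passed the threshold, and the list's median was -0.263. Below all WT arrays lay 3 and above them 1 (30% and 10%, beside 15.1% and 11.7% of all genes). Pax7, the defining factor, was at 12.10, 11.30 and 11.09 in WT QSC and at 11.60 and 11.82 in the knockout, 0.22 ± 0.35 (adjusted p = 0.881), with overlapping arrays. Vcam1 was at 0.09 ± 0.20 and Cdh15, M-cadherin, at 0.16 ± 0.23 (adjusted p = 0.918 and 0.867). Calcr, the calcitonin receptor of quiescent cells, was at -0.68 ± 0.32 and Itga7, a laminin receptor subunit, at -0.62 ± 0.28 (adjusted p = 0.474 and 0.456). Myf5, Megf10, Chodl, Sdc4 and Fgfr4 were at -0.34, -0.37, -0.41, -0.19 and -0.14, and the sign of Fgfr4 turned to 0.052 without WT QSC pool 1. Cd34 of the wider quiescence list was between 11.33 and 12.09 in the WT QSC pools and at 10.79 and 10.54 in the knockout, -1.14 ± 0.32 (adjusted p = 0.239).

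Of 29 genes of myogenic commitment and differentiation 0 passed the threshold in limma, and the median was -0.279. Below all WT arrays lay 12 (41.4%, beside 15.1% of all genes). Actc1, cardiac actin of early muscle, was at 11.55, 10.07 and 12.06 in the WT QSC pools and at 8.13 and 7.71 in the knockout. Its difference of -3.31 ± 0.59 (adjusted p = 0.083) exceeded that of every called gene, but the WT pools themselves differed widely. Myog, myogenin, was at 9.77, 8.35 and 10.33 in WT and at 6.97 and 7.24 in the knockout, -2.38 ± 0.62 (adjusted p = 0.22). Mymk, myomaker of cell fusion, was at -1.78 ± 0.55 (adjusted p = 0.269). WT QSC pool 2 was the lowest WT pool for all 3 genes, yet above the Rptor KO arrays.

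Among the lists of markers of other cells that a sort could carry, Cox8b of the muscle fibre list was the member past the threshold, and the other lists had none in limma. Endothelial markers (16 tested) had a median of -0.075, with a mean level of 9.12 in Rptor KO QSC and 8.78 to 9.53 in WT QSC. Fibro-adipogenic markers (14 tested) had a median of -0.032. Pericyte and smooth muscle markers (11 tested) had a median of -0.137, in which Acta2 was at -1.19 ± 0.27 and Tagln at -0.77 ± 0.18 (adjusted p = 0.172 for both). Immediate early genes, which cell isolation itself induces, had a median of 0.137 over 35 tested. Of these Junb was at 0.82 ± 0.21, Egr3 at 1.05 ± 0.27 and Klf2 at 0.85 ± 0.24 (adjusted p = 0.203, 0.21 and 0.239). The part of cell isolation in the other results was not tested. Neutrophil markers, of which 5 of 10 listed were tested, were all positive, with a median of 0.369. Above all WT QSC arrays lay 2 (40%, beside 11.7% of all genes). Their mean level was 7.24 in Rptor KO QSC, above the WT QSC pools at 6.53, 6.82 and 7.14, and their part in the other results was not tested.

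A second Rptor KO pool, from injured mice, allowed the same genotype difference to be measured against other WT pools. Rptor KO CSC against WT CSC shares no sample with the comparison in QSC, though the estimate of spread is common to both. It had 129 genes higher (0.924%) and 415 lower (2.97%). All 17 genes called in QSC had the same sign in CSC, where 70.5% of all tested genes did, and 16 passed the threshold there. Gal was the exception, at -0.64 (adjusted p = 0.0934). In CSC Ccna2 fell by 1.63 (adjusted p = 0.00773) and Gpnmb rose by 3.22 (adjusted p = 0.00428). Mcoln2 rose by 1.64 (adjusted p = 0.0106), and Fdps fell by 0.90 (adjusted p = 0.0415). Across the 13956 genes the differences in the 2 states correlated at a Pearson r of 0.589 and a Spearman rho of 0.572, as a description, since genes are not replicates and technical handling may be shared. For Lsm6 the second array was the lower one in Rptor KO QSC (7.96 and 7.0) and in Rptor KO CSC (8.08 and 7.21). The same held in WT CSC pool 1 (9.12 and 8.50). The part of such array differences in other genes was not tested.

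**Figure D5:**
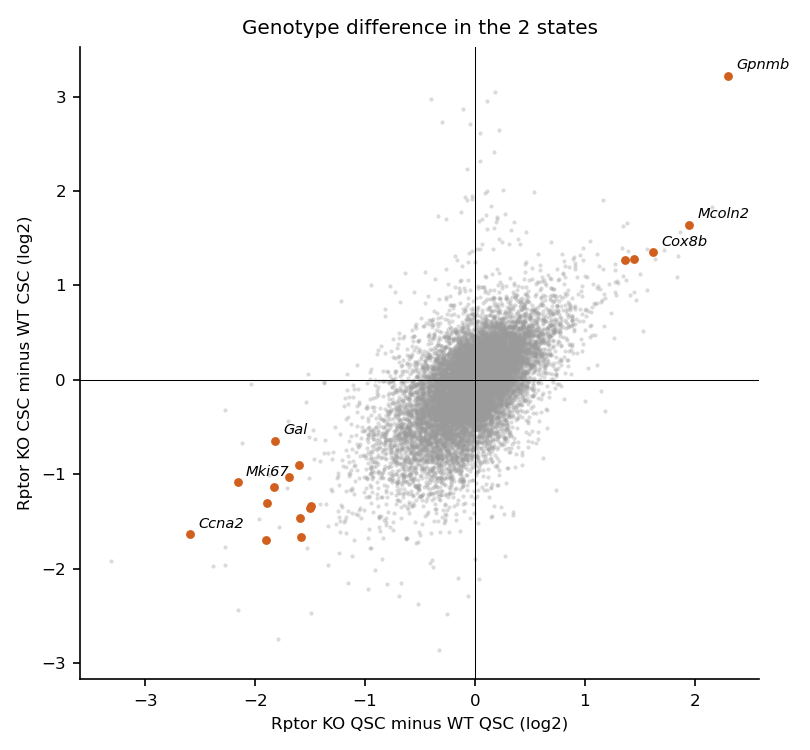
Difference between Rptor KO and WT for each tested gene in QSC (x axis, log2) and in CSC (y axis, log2). Orange points are the 17 genes called in QSC, 12 of them negative in both states and 5 positive in both.

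The difference between the 2 genotype effects passed for 0 genes in limma, with 620 at an unadjusted p under 0.05. With 1 Rptor KO pool per state its SE was larger than that in QSC alone, for Csf1r 0.34 against 0.24. The lack of calls therefore does not show that the effects were alike. The macrophage list moved in CSC, where all 10 of its tested members passed as higher (median 1.99, mean level 9.54 in Rptor KO CSC against 7.54 to 7.64 in WT CSC), and its part in the rise of Gpnmb in CSC was not tested. In QSC, as given above, its mean level lay within the WT range, and its part there was not tested either. The lists of cell cycle and proteasome genes had medians of -1.05 and -0.763 in CSC, with 25 of 44 and 14 of 38 members past the threshold, all lower. The microRNAs of the Dlk1-Dio3 region had a median of 0.939 in CSC and all 32 were again positive.

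Taken over both states, which counts each state's difference equally and so includes the QSC values, 291 genes were higher (2.09%) and 799 lower (5.73%), a split that became 449 and 703 after quantile normalization again and 180 and 799 when each array was centred on its median. The median SE was 0.154 here against 0.218 in QSC alone. The smallest p values were those of Ccna2, Gpnmb, Top2a, Anln and Kif11, at differences of -2.11, 2.76, -1.60, -1.48 and -1.43 (adjusted p = 0.000858 for Ccna2 and 0.00155 for the others). Passing members per list were 26 of 44 cell cycle genes, all lower, 7 of 20 sterol genes lower and 1 higher, 19 of 38 proteasome subunits, all lower, and 24 of 69 oxidative phosphorylation genes, all lower. Of 20 TCA cycle genes 9 were lower. In the lysosome list 8 of 47 passed, all higher, among them Gaa at 1.37 (adjusted p = 0.0127) and Npc2 at 0.65 (adjusted p = 0.0261). Gaa lies close to Rptor, as given above. Of the 10 tested markers of macrophages and monocytes, which are rich in lysosomes, 9 passed as higher too, with a median of 1.07 that was 1.99 in CSC and 0.119 in QSC. The lysosome list had a median of 0.311 in CSC and -0.027 in QSC, and the part of the macrophage markers in its values was not tested. Of the 32 microRNA genes of the Dlk1-Dio3 region 25 passed as higher, and of the other 107, 13. Idi1 was at -2.12 (adjusted p = 0.00591), Psat1 at -1.54 (adjusted p = 0.00193), Myog at -2.18 (adjusted p = 0.0236) and Cdkn1c at -2.02 (adjusted p = 0.0116). The 1090 calls became 279 when WT CSC pool 2 was left out and 277 when pool 3 was.

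Set against the pool with the opposite lesion, Rptor KO QSC had 40 genes higher (0.287%) and 176 lower (1.26%) than TSC1 KO QSC, from 1 pool each with a median SE of 0.267. Fdps was at 9.84 in TSC1 KO QSC and Ccna2 at 9.35, near their WT levels, and differed by -1.71 and -2.89 (adjusted p = 0.019 and 0.0043). Lrrn1 was at 10.47 in TSC1 KO QSC and differed by -2.85 (adjusted p = 0.0043). Members past the threshold were 8 of 44 cell cycle genes, 4 of 20 sterol genes and 10 of 69 oxidative phosphorylation genes, all lower in Rptor KO QSC. Of the microRNA genes of the Dlk1-Dio3 region 19 of 32 passed, all higher, with a median of 1.84, and of the other 107, 2 passed as higher, with a median of 0.572. The median of the small nucleolar RNA genes was 0.702, with 0 of 47 past the threshold in limma. Sesn1 was lower by -1.89 (adjusted p = 0.0358). This comparison shares the Rptor KO pool with that against WT, so that the 16 of 17 genes that pass here as well are not independent support. Its counts moved with the WT pools that set the spread, to 35 without WT CSC pool 2 or 3, to 117 without WT CSC pool 1 and to 670, 476 and 395 without WT QSC pool 1, 2 and 3.

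Against cMet KO QSC, another conditional knockout made with the same Cre but on a background that includes FVB, 6 genes were lower (0.043%): Ccna2, Mki67, Kif11, Anln, Top2a and Gal. The number higher was 0 in limma (0.0%), with 366 higher genes at an unadjusted p under 0.05. Ccna2 differed by -2.90 (adjusted p = 0.00648), Mki67 by -2.47 (adjusted p = 0.0135) and Gal by -1.83 (adjusted p = 0.0462). Fdps and Mcoln2, at -1.77 and 1.75, did not pass (adjusted p = 0.0553 and 0.103). The sterol list had a median of -1.10 here. Ccna2 was the gene still called when WT CSC pools were left out in turn.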

How the data were processed

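The authors deposited log2 probeset signals of Affymetrix Mouse Gene 1.0 ST arrays. The submitters' processing notes name RMA and Affymetrix Expression Console. Its version, and which arrays were normalized jointly, is not given in the sources used here. Of 35556 probesets 21789 had 1 gene symbol in the platform annotation, 1621 several and 12146 none listed, and the brightest probeset stood for each of 19938 genes. A filter at the 30th percentile of gene means across 12 pools (log2 6.45) kept 13956 genes.

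Arrays of a pool were averaged. A group-means model of 8 groups used limma 3.58.1 (R 4.3.3; lmFit, eBayes), with p adjusted by Benjamini-Hochberg over all genes, threshold 0.05. WT QSC and WT CSC give all 4 residual degrees of freedom (5.01 prior, 9.01 in all), and the median moderated SD was 0.189. The fit was checked on simulated data in which all pools, knockout and WT, had the same spread. That check could not examine whether a knockout pool spreads as much as the WT pools. The Rptor KO CSC comparison with WT CSC was added after the values were seen.

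Genes named are the targeted genes; the 12 largest rises and 12 largest falls past the threshold with both Rptor KO arrays outside all WT QSC arrays, filled by smallest p and without predicted and small RNA genes; up to 3 members with the smallest p per list; pathway and satellite cell markers; and the 5 smallest p over both states. Genes marked above as outside this rule, or as picked after their values were seen, come in addition. Members and lists were chosen with earlier results of these data known. Motifs were searched in RefSeq promoter windows (GRCm38.p6). Alternatives changed the normalization, centring, filter, probeset choice, moderation, use of technical arrays and the WT pools included. Figures used matplotlib 3.10.9. No scanner files were used.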

Additional observations from a re-analysis of the deposited data

How the results depend on the processing

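The count against WT QSC was 17. It was 35 after quantile normalization again, 33 with the filter at the 50th percentile, 235 with the pool as a random block, 108 with the second Rptor KO arrays, 2306 with every array as a replicate and 0 with the WT QSC and Rptor KO QSC pools alone (limma, 965 genes at an unadjusted p under 0.05). Leaving out 1 WT pool gave 2 to 46. Ccna2 and Mki67 each passed under 17 of 18 alternatives, Mir134 under 7 and Mir485, Lsm6 and Ect2 under 9, and none of the 17 turned sign.

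Over both states (1090) the count was 2129 with the random block, 2402 with the second arrays, 5011 with every array and 277 to 1613 without 1 WT pool. Against TSC1 KO QSC (216) it was 101 with no filter, 1271 with the random block, 329 with first arrays alone, 405 with second Rptor KO arrays, 4278 with every array and 35 to 670 without 1 WT pool. Against cMet KO QSC (6) these were 15 after quantile normalization, 13 at the 50th percentile, 190 with the random block, 16 with second arrays, 2234 with every array, 14 with the first Rptor KO arrays (added after the data were seen) and 1 to 14 without 1 WT pool. Fits by array treat arrays of 1 pool as further samples.

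Signs turned for Rptor (0.084) and Met (-0.16) with the second Rptor KO arrays. Without 1 WT pool Rptor ran from -0.24 to 0.0902, Mtor from -0.038 to 0.37 and Fgfr4 from -0.27 to 0.052. Of 969 list medians under alternatives 939 moved by less than 1 SD between WT QSC pools, but the median of 22 of 54 lists turned sign under at least 1 alternative, all 22 with medians between -0.168 and 0.119. The cause of these changes was not tested. No paired analysis was possible because the Rptor KO pool carries no biological replicate number. Precision is limited by the 1 Rptor KO pool and by the 4 residual degrees of freedom.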
